A study of Homo sapiens with 6 samples.

Results

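The genes DDIT4, SESN1, SESN2, SESN3, DEPTOR, TSC1 and TSC2, which encode inhibitors of the kinase complex mTORC1, were described in T-24, a cultured line of human bladder cancer cells with epithelial origin. They were chosen by gene symbol, and all 7 were found among the 38557 gene symbols of the deposited tables. Poly(A) RNA was sequenced from T-24 cells given CCT068127 at 1 µM for 48 h (3 libraries) or the vehicle DMSO for 48 h (3 libraries), all of the same line and described as independent biological replicates. CCT068127 is known to inhibit CDK2 and CDK9, kinases of the cell cycle and of transcription. The comparison asked how each transcript stood in treated cells relative to vehicle cells. RNA was the only readout, so protein levels and mTORC1 activity were not measured.

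mTORC1 is a growth-promoting kinase complex that is switched on at the lysosome by the small GTPase RHEB when amino acids and growth factors are present. The TSC complex, built from TSC1, TSC2 and TBC1D7, turns RHEB off. DDIT4, also called REDD1, is a stress-induced protein that acts through the TSC complex, sestrins hold back the amino acid arm by binding GATOR2, and DEPTOR binds the mTOR kinase itself. DDIT4 and SESN2 are known targets of the stress transcription factor ATF4, and sestrin genes are also known targets of FOXO factors.

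Library totals were 1966742 to 5557546 counts for CCT068127. For DMSO they were 371044040 and 411097626 in replicates 1 and 2 but 5955296 in replicate 3. Precision was therefore set by the shallow libraries. Of 6 epithelial markers, 5 (EPCAM, KRT7, KRT8, KRT18 and KRT19) were at or above 1 TPM (a level corrected for transcript length and library size) in all 6 libraries, while CDH1 was not. Of 6 luminal urothelial markers only GATA3 and PPARG reached that level, and the uroplakin genes UPK1A, UPK1B, UPK2 and UPK3A did not. None of the 5 leukocyte markers and none of the 5 fibroblast markers reached it in all libraries, and of 4 endothelial markers only CDH5 did. The endothelial gene KDR and the fibroblast genes COL1A2, DCN and LUM were at 0 in all 6 libraries. Summed leukocyte markers stood at 4.61 to 7.69 TPM in CCT068127 and 4.92 to 6.22 TPM in DMSO, and fibroblast markers at 0.38 to 0.65 and 0.62 to 1.07 TPM in CCT068127 and DMSO. Summed epithelial markers stood at 5281 to 6725 TPM in CCT068127 and 3677 to 4874 TPM in DMSO. Summed luminal markers stood at 58.3 to 63.9 TPM in CCT068127 and 214 to 246 TPM in DMSO. The part of these marker differences in the results was not tested. Summed endothelial markers stood at 2.26 to 5.09 TPM in CCT068127 and 4.66 to 5.67 TPM in DMSO.

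Transcripts of 6 of the 7 genes fell under CCT068127, and the remaining gene, SESN3, was too low to test. DDIT4 fell the most, to a CCT068127-to-DMSO ratio of 0.122, followed by SESN2 (0.277), DEPTOR (0.435), SESN1 (0.461), TSC2 (0.513) and TSC1 (0.665). In each of these 6 genes every CCT068127 library lay below every DMSO library, in CPM (counts scaled to library size by the TMM method) and in TPM. For SESN1, DEPTOR and TSC1, exact 95% Poisson intervals of the counts overlapped between some CCT068127 and DMSO libraries. The test was edgeR's two-sided quasi-likelihood test over 13597 genes, with calls at a Benjamini-Hochberg adjusted p under 0.05, and in that comparison 64.7% of all tested genes were called, 32.8% lower and 31.9% higher. Groups did not overlap in CPM in 36.0% of tested genes with CCT068127 lower and in 33.3% with CCT068127 higher. The 6 genes passed the low-count filter in all 3 CCT068127 and all 3 DMSO libraries. In RNA pooled from a culture, fewer cells expressing a gene and less RNA per cell cannot be told apart.

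**Figure D1:**
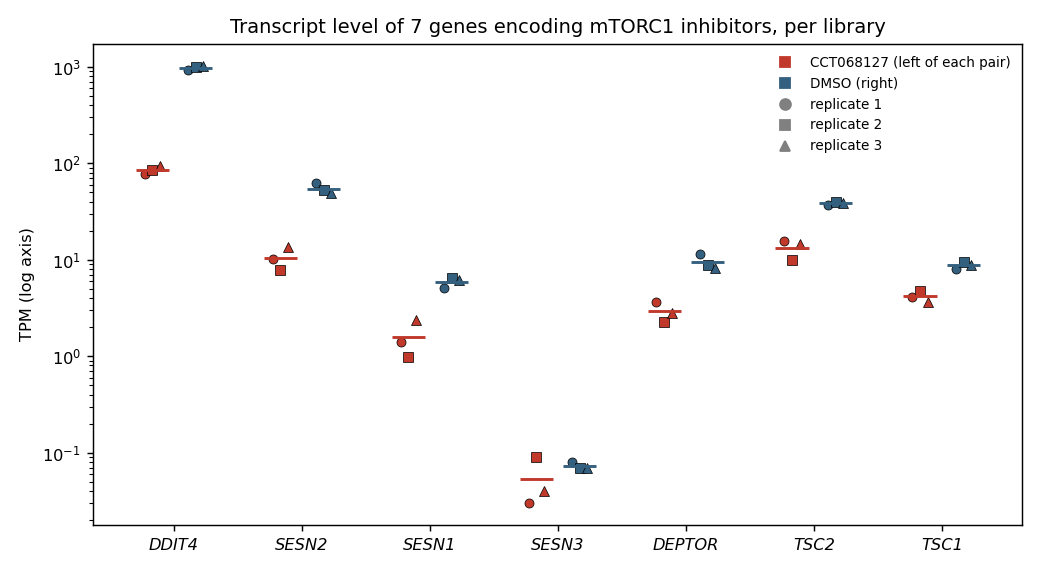
TPM on a log axis for the 7 genes in each library, CCT068127 left (red) and DMSO right (blue), symbols marking the replicate and lines the group means. All CCT068127 points lie below all DMSO points for every gene except SESN3, which lies between 0.03 and 0.09 TPM in both groups.

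DDIT4 (chromosome 10, 72273920 to 72276036, plus strand, GRCh38, GENCODE v29) stood at 88.7, 93.4 and 102 CPM in CCT068127 replicates 1 to 3, against 728, 801 and 806 CPM in DMSO replicates 1 to 3. The replicates of each group lay close together and the gap between groups was many times their spread. The log2 fold change was -3.04 ± 0.11 (SE, n = 3 per group; edgeR adjusted p = 1.75e-08). DDIT4 ranked 104 from the lowest fold change among the 13597 tested genes, the lowest 0.765%. In TPM the gene averaged 85 ± 7.46 in CCT068127 and 979 ± 52.7 in DMSO (SD, n = 3 each). DDIT4 made up 69 to 76.5% of the summed TPM of the 7 genes in CCT068127 libraries and 88.1 to 90.2% in DMSO libraries. The annotated antisense gene DDIT4-AS1 shares 847 bases (41.2%) of the exonic sequence of DDIT4, and no source used here states strandedness, so its reads could not be told apart from those of DDIT4 if the libraries were unstranded. DDIT4-AS1 was not analysed here. The same limit holds for SESN1, DEPTOR and TSC2. On the opposite strand, AL390208.1 shares 363 bases (7.09%) of SESN1 exonic sequence and AP005717.1 shares 252 bases (9.61%) of that of DEPTOR. DDIT4L, the paralogue of DDIT4, moved the other way in CPM, with 5.48, 2.85 and 7.08 CPM in CCT068127, against 2.57, 1.6 and 2.38 CPM in DMSO (log2 fold change 1.38 ± 0.33, edgeR adjusted p = 0.00361). Its groups overlapped in TPM, and no call was made on log2(TPM + 1) values (0.48, limma adjusted p = 0.142). The CCT068127 libraries held 27, 5 and 30 DDIT4L counts and DMSO replicate 3 held 16. Without CCT068127 replicate 3 the log2 fold change was 1.10 (edgeR adjusted p = 0.0494).

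The promoters of DDIT4, SESN2 and TSC2 are printed because DDIT4 and SESN2 had the largest falls and TSC2 held the ATF4-type motif. The RefSeq promoter table (GRCh38.p14) covers 6 of the 7 genes with 9 windows, each from 250 bases before to 50 bases after a start site. The windows are chr10:72273674-72273973 on the plus strand for DDIT4, chr1:28259268-28259567 on the plus strand for SESN2 and chr16:2047735-2048034 on the plus strand for TSC2. Capitals mark TGATGNAA, the core of the element bound by ATF4 with C/EBP partners, and ACGTG, the core of the element bound by hypoxia-inducible factors, each searched on both strands.
DDIT4: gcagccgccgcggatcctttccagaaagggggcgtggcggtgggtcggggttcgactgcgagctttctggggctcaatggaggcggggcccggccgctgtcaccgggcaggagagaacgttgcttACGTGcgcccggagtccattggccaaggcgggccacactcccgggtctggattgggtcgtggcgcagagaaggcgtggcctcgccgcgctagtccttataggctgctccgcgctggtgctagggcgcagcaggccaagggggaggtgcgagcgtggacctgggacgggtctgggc
SESN2: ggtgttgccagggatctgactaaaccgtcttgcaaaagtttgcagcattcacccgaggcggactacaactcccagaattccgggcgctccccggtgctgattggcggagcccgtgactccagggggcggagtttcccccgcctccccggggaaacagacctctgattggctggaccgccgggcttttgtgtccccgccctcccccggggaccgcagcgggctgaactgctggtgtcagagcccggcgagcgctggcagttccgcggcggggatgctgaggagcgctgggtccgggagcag
TSC2: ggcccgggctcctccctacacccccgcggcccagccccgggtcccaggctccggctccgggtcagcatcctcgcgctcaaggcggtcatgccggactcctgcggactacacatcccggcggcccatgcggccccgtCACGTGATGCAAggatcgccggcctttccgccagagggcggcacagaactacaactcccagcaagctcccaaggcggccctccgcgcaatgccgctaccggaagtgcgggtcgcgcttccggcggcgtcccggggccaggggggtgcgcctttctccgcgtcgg
DDIT4 has 1 ACGTG, at position -125 from the start site. TSC2 has 1 TGATGNAA at position -110, overlapping 1 CACGTG. That stretch reads as ACGTG on each strand, so the 2 ACGTG matches of TSC2 are 1 site. SESN2 has neither motif in this window. TGATGNAA was present in 3.62% and ACGTG in 21.4% of the 35116 windows of this length in the table. The windows of SESN1, SESN3 and TSC1 and the second window of TSC2 held neither. TGTTTAC, TGACGTCA and GGGCGG were searched as well and are not marked. TGTTTAC and TGACGTCA were in none of the 9 windows. GGGCGG, present in 45% of windows in the table, was in the windows of SESN1, SESN2, TSC1 and TSC2 but not in those of DDIT4 and SESN3. These are matches of letters and not measured binding.

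Sestrin transcripts were mostly SESN2. SESN2 (chromosome 1, 28259527 to 28282491), which encodes a leucine-binding sestrin, stood at 23.6, 17.6 and 30.2 CPM in CCT068127, against 101, 86.5 and 78.7 CPM in DMSO. The highest CCT068127 library, replicate 3, was far below the lowest DMSO library. The log2 fold change was -1.85 ± 0.17 (edgeR adjusted p = 4.29e-06), rank 464 from the lowest among tested genes (the lowest 3.41%). SESN1 (chromosome 6, 108986437 to 109094819), another stress-responsive sestrin gene, stood at 3.45, 2.28 and 5.42 CPM in CCT068127, against 7.34, 9.43 and 9.52 CPM in DMSO. The log2 fold change was -1.12 ± 0.27 (edgeR adjusted p = 0.0039), and -1.92 on log2(TPM + 0.1) values (limma adjusted p = 0.00155). CCT068127 replicate 2 held only 4 SESN1 counts, for which the exact 95% Poisson interval was 0.62 to 5.83 CPM, and replicates 1 and 3 held 17 and 23. The interval of CCT068127 replicate 3, 3.44 to 8.14 CPM, reached past the value of DMSO replicate 1 (7.34 CPM). SESN3 (chromosome 11, 95165513 to 95232541), a FOXO-responsive sestrin gene, had 3 counts over the CCT068127 libraries and 287 over the DMSO libraries. That is 0.275 against 0.328 pooled CPM, a ratio of 0.836 with an exact 95% counting interval of 0.171 to 2.47, so no difference was detectable at this depth.

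The summed sestrin level was 11.5, 8.9 and 15.8 TPM in CCT068127, against 67.7, 59.1 and 55.2 TPM in DMSO. All treated libraries lay below all vehicle libraries (exact permutation test, two-sided, p = 0.1, which is the lowest possible with 3 libraries a group). The difference in log2 TPM was -2.36, or -1.84 when CPM was summed in place of TPM. SESN2 made up 87.6, 88 and 84.9% of that sum in CCT068127, against 92.3, 89 and 88.6% in DMSO, a difference of -3.16 percentage points (exact permutation p = 0.1). CCT068127 replicate 2 and DMSO replicate 3 lay close together in this share, and the difference was -1.98 points without DMSO replicate 1. The fall of DDIT4 exceeded that of SESN2 within libraries. The log2 ratio of DDIT4 to SESN2 CPM was 1.91, 2.40 and 1.76 in CCT068127, against 2.85, 3.21 and 3.36 in DMSO (difference -1.11, exact permutation p = 0.1).

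**Figure D2:**
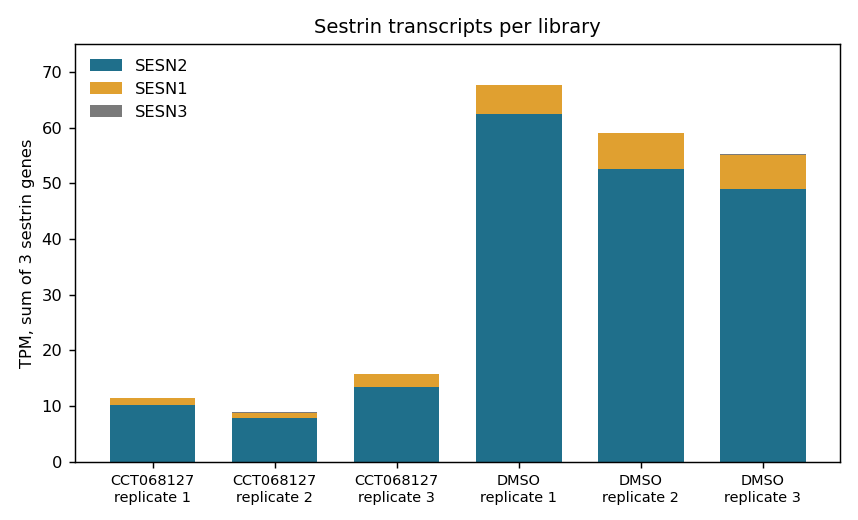
Stacked bars give the TPM of SESN2 (teal), SESN1 (orange) and SESN3 (grey) in each library, CCT068127 left and DMSO right. The sums lie between 8.9 and 15.8 TPM in CCT068127 and between 55.2 and 67.7 TPM in DMSO, and SESN2 is the largest part of every bar.

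DEPTOR (chromosome 8, 119873717 to 120050913), the mTOR-binding inhibitor, stood at 6.3, 3.42 and 4.48 CPM in CCT068127, against 13.6, 10.8 and 9.82 CPM in DMSO. Every treated library was lower than every vehicle library. The log2 fold change was -1.20 ± 0.24 (edgeR adjusted p = 0.00114). The CCT068127 libraries held 31, 6 and 19 DEPTOR counts. The exact 95% Poisson interval of CCT068127 replicate 1, 4.28 to 8.94 CPM, overlapped that of DMSO replicate 3, 7.59 to 12.5 CPM.

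Both large TSC subunits fell, TSC2 by more than TSC1. TSC2 (chromosome 16, 2047465 to 2089487), the subunit that acts on RHEB, stood at 58.3, 41.6 and 54.5 CPM in CCT068127, against 98.1, 108 and 101 CPM in DMSO (log2 fold change -0.96 ± 0.12, edgeR adjusted p = 5.93e-05). TSC1 (chromosome 9, 132891348 to 132946874), the scaffold that stabilises TSC2, stood at 24.6, 27.3 and 21 CPM in CCT068127, against 32.5, 39 and 36.2 CPM in DMSO (log2 fold change -0.59 ± 0.14, edgeR adjusted p = 0.00299). On log2(TPM + 1) values the changes were -1.47 for TSC2 and -0.91 for TSC1. CCT068127 replicate 2 was the lowest library for TSC2 and the highest of its group for TSC1. In that library the exact 95% Poisson interval of TSC1, 20.1 to 36.2 CPM, reached past DMSO replicate 1 (32.5 CPM). The log2 ratio of TSC1 to TSC2 TPM was -1.92, -1.06 and -1.98 in CCT068127, against -2.21, -2.09 and -2.11 in DMSO, a difference of 0.48 (exact permutation p = 0.1) that became 0.19 without CCT068127 replicate 2. The annotated antisense neighbour PKD1 shares 778 exonic bases with TSC2, 3.96% of the 19626 bases in all annotated TSC2 exons. PKD1 held more counts than TSC2 in every library and was also lower (log2 fold change -1.35, edgeR adjusted p = 4.64e-05). If the libraries were unstranded, reads from the shared bases could not be told apart from those of TSC2. NTHL1, which shares 402 bases with TSC2, was not called (0.28, adjusted p = 0.14).

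The other parts of this switch did not follow TSC1 and TSC2. RHEB, the GTPase that the TSC complex turns off, rose to 249, 262 and 254 CPM in CCT068127, against 95.3, 89 and 91.4 CPM in DMSO (log2 fold change 1.47 ± 0.09, edgeR adjusted p = 3.34e-07), and it also rose in TPM (0.98, limma adjusted p = 5.34e-05). TBC1D7, the small TSC subunit, rose in CPM, with 17.3, 19.4 and 22.2 in CCT068127 against 13.8, 12.4 and 11.9 in DMSO (log2 fold change 0.61 ± 0.15, edgeR adjusted p = 0.00404). TBC1D7 was not called when library totals set the scale (0.30, edgeR adjusted p = 0.0982), without a low-count filter (0.36, adjusted p = 0.137) and on log2(TPM + 1) values (0.01, limma adjusted p = 0.958). TBC1D7 had 4.97, 4.85 and 7.18 times the TPM of TSC1 in CCT068127, against 3.22, 2.39 and 2.44 times in DMSO.

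**Figure D3:**
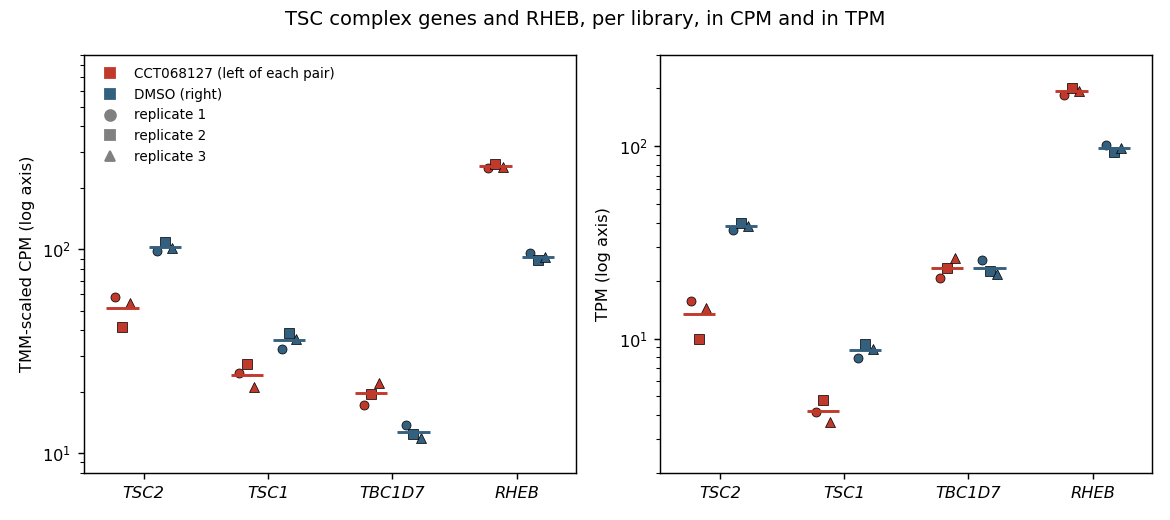
Levels of TSC2, TSC1, TBC1D7 and RHEB per library on log axes, in TMM-scaled CPM (left panel) and in TPM (right panel), with CCT068127 left of DMSO. TSC2 and TSC1 are lower and RHEB is higher in CCT068127 in both panels, while TBC1D7 is separated in CPM and overlaps in TPM.

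By TPM, which allows genes to be ranked, DDIT4 was far above the other 6 genes in both groups. In CCT068127 the means then ran TSC2 (13.4), SESN2 (10.5), TSC1 (4.2), DEPTOR (2.93), SESN1 (1.58) and SESN3 (0.0533 TPM). The ranges of TSC2 and SESN2, of TSC1 and DEPTOR, and of DEPTOR and SESN1 overlapped between replicates. In DMSO the order was SESN2 (54.6), TSC2 (38.3), DEPTOR (9.54), TSC1 (8.72), SESN1 (5.92) and SESN3 (0.0733 TPM), and only the DEPTOR and TSC1 ranges overlapped. SESN2 stood above TSC2 in every DMSO library and below it in every CCT068127 library.

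Over the 6 libraries, 13136 other genes with no count of 0 were compared with DDIT4 by the Euclidean distance between log2 CPM profiles, each taken relative to its DMSO mean. The 3 nearest were ALDH3A2 (distance 0.34), SLC4A11 (0.36) and C14orf132 (0.49). The profiles nearest SESN2 were those of CASP1 (0.28), HEIH (0.35) and LURAP1L (0.36). That these genes were also lower in CCT068127 follows from how they were chosen.

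Genes on either side of the inhibitors were read by role, from lists chosen with earlier results of these data known. Over all tested genes the median log2 fold change was -0.05, with 4333 called higher and 4460 lower. Scaled by library totals, the median was -0.36, with 2999 genes called higher and 6581 called lower. The median was -0.46 on log2(TPM + 1), where 2474 genes were called higher and 7472 called lower. List counts are given with TMM, and those on library totals beside them where they differ.

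Of 13 tested transcription factors known to act on DDIT4 or sestrin genes, 11 fell and 2 rose (median -0.97), or 11 and 0 with library totals. ATF4, the stress factor, fell to 286 ± 5.88 CPM in CCT068127, against 821 ± 47.5 CPM in DMSO (log2 fold change -1.52 ± 0.09, edgeR adjusted p = 2.96e-07). Its partner CEBPB fell by 1.92 and the GC-box factor SP1 by 0.97 on the log2 scale. Named after their values were seen, DDIT3 (-1.86), FOXO1 (-1.13), NR3C1 (-1.06) and HIF1A (-0.79) were also called lower. The antioxidant factor NFE2L2 (0.46) and the transcription factor gene TP73 (0.60) rose, and neither was called with library totals (0.15 and 0.29, adjusted p = 0.231 and 0.124) or on log2(TPM + 1) values, where NFE2L2 stood at -0.24. TP73 also lost its call without CCT068127 replicate 1. TP63 was too low to test.

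Of 16 mTORC1 substrates and effectors, 10 fell and 2 rose (median -0.66), or 13 fell and 0 rose with library totals. The autophagy kinase gene ULK1 (-1.68), the translation inhibitor gene PDCD4 (-1.53) and the ribosomal protein gene RPS6 (-0.85) fell, and RPS6 stood at -1.34 on log2(TPM + 1) values. EEF2K, the elongation factor 2 kinase gene, rose by 0.45 and LPIN1, a phosphatidate phosphatase gene, by 0.44. EEF2K lost its call without CCT068127 replicate 1 or 3, and LPIN1 lost it without any single library other than DMSO replicate 1. The list had 0 members called higher without CCT068127 replicate 1 or 3, and 1 without CCT068127 replicate 2, DMSO replicate 2 or DMSO replicate 3.

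Of 21 genes of growth factor and energy input to the TSC complex, 10 fell and 5 rose (median -0.31), or 14 and 2 with library totals. The AMP-activated kinase subunit genes PRKAG1 and PRKAA1 fell by 0.61 and 0.72 on the log2 scale, and stood at -1.07 and -1.09 on log2(TPM + 1) values. AKT1, a kinase that inactivates TSC2, rose by 0.57 and MAPK3, which encodes ERK1, by 0.68, and neither was called on log2(TPM + 1) values (0.07 and 0.22, limma adjusted p = 0.534 and 0.125).

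Of 20 genes of the activating amino acid arm (GATOR2, Rag GTPases, Ragulator, folliculin and RHEB), 8 rose and 5 fell (median 0.16), or 4 rose and 6 fell with library totals. The GATOR2 subunit gene SEC13 (1.29), also part of the nuclear pore and COPII coat, and the Ragulator gene LAMTOR5 (1.23) rose. The Rag GTPase genes were split, and RRAGA (-1.0) and RRAGB (-1.53) fell. Named after their values were seen, RRAGC (0.32) and RRAGD (0.79) were called higher, and the RRAGD groups overlapped in CPM. Neither RRAGC nor RRAGD was called with library totals (0.01 and 0.48, edgeR adjusted p = 0.942 and 0.189). SEC13 stood at 0.79 and LAMTOR5 at 0.70 on log2(TPM + 1) values. The number that rose was 5 without CCT068127 replicate 1, CCT068127 replicate 2 or DMSO replicate 3, and 4 without DMSO replicate 2. Of 10 genes of the restraining arm (GATOR1, KICSTOR and amino acid sensors), 4 fell and 2 rose (median -0.34), or 6 and 2 with library totals. The KICSTOR gene ITFG2 (-1.52) and the arginine sensor gene CASTOR1 (-1.10) fell. The KICSTOR gene C12orf66 rose by 1.09 and CASTOR2 by 0.89. On log2(TPM + 1) values C12orf66 stood at 0.47 (limma adjusted p = 0.0348), a call that was lost without a TPM filter (adjusted p = 0.0582). CASTOR2 was not called on that scale (0.21, adjusted p = 0.246). CASTOR1 and CASTOR2 are similar genes whose reads may be shared. Against DMSO replicate 3 alone, CASTOR1 stood at -0.65.

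Of 10 mTORC1 and mTORC2 subunits and assembly factors, 3 rose and 2 fell (median -0.11), or 2 and 5 with library totals. The chaperone partners TELO2 (0.79) and TTI1 (0.90) rose in counts but were not called on log2(TPM + 1) values (limma adjusted p = 0.0811 and 0.0552). PRR5L (0.74, edgeR adjusted p = 0.0443) lost its call without any single library other than DMSO replicate 1. MTOR, the kinase gene (-0.43), and MLST8, a shared subunit gene (-0.66), fell. Scaled by library totals, MTOR stood at -0.74. On log2(TPM + 1) values MTOR stood at -0.85 and MLST8 at -1.15. Without CCT068127 replicate 1 the number that fell was 4 and without any single library other than DMSO replicate 1 the number that rose was 2. Of 15 partners and turnover factors of the inhibitors, 9 fell and 4 rose (median -0.42), or 11 and 4 with library totals. The ubiquitin ligase genes CUL1 (-0.65), HERC1 (-0.74) and MYCBP2 (-0.70) fell, and the ligase core genes SKP1 (1.48) and RBX1 (1.50) rose. On log2(TPM + 1) values CUL1 and MYCBP2 both stood at -1.11, SKP1 at 0.98 and RBX1 at 0.99, and HERC1 stood at -1.22 on log2(TPM + 0.1).

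**Figure D4:**
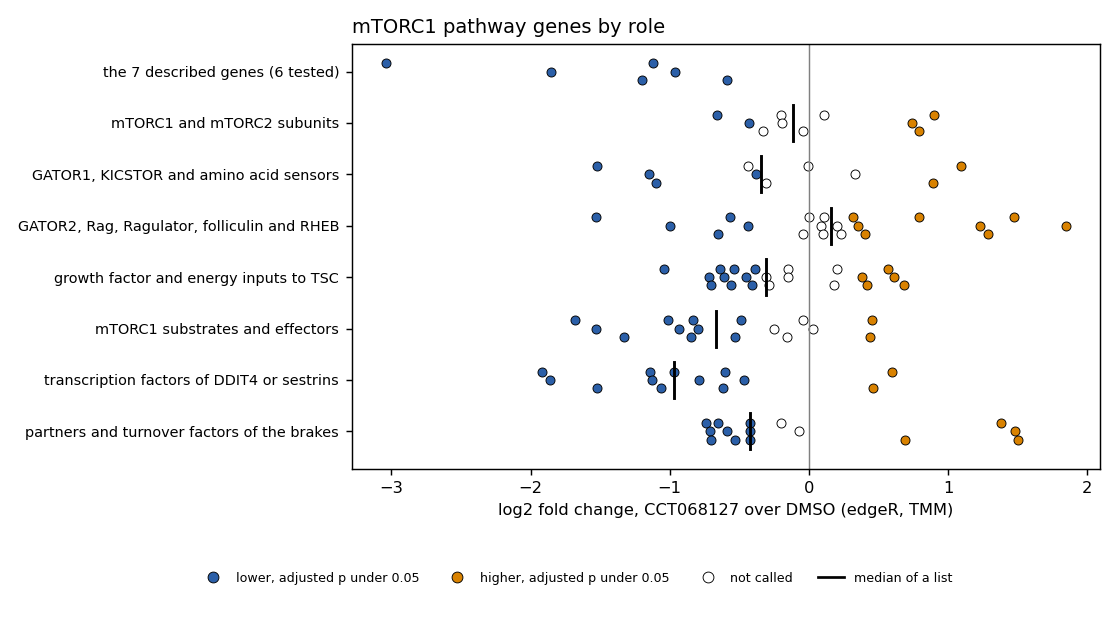
Each point is the log2 fold change of 1 tested gene, CCT068127 over DMSO, in rows by role; blue and orange mark calls and bars the median of each list. The 6 tested inhibitor genes lie between -3.04 and -0.59, and the transcription factor list has the lowest list median (-0.97).

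The same 6 inhibitor genes were called lower in 18 of 18 other fits that gave a test. TSC1 ranged from -1.04 to -0.50, and was -0.90 with library totals, -0.91 on log2(TPM + 1) and -1.04 on log2(TPM + 0.1). Set against the shallow DMSO replicate 3 alone, the log2 fold changes were -3.12 for DDIT4, -1.71 for SESN2, -1.29 for SESN1, -1.0 for DEPTOR, -0.99 for TSC2 and -0.62 for TSC1, as effect sizes without a test.

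**Figure D5:**
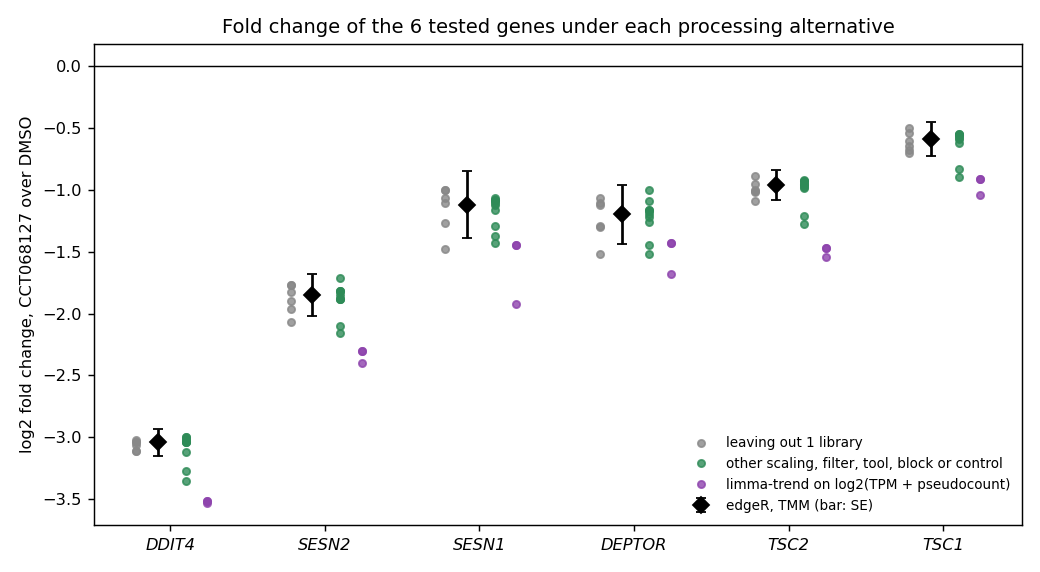
Log2 fold change (CCT068127 over DMSO) of the 6 tested genes: black diamonds with SE bars are the reported fit, grey points leave out 1 library, green points change the scaling, filter, tool, block or control, and purple points use TPM. All points lie below 0, from -3.53 to -3.0 for DDIT4 and from -1.04 to -0.50 for TSC1.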

How the data were processed

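Per the labels, T-24 cells were treated for 48 h, poly(A) RNA was isolated magnetically and libraries were made with a NEB Ultra II kit for NovaSeq sequencing. RSEM, Bowtie and the build hg38 appear without versions in the submitters' processing notes. The authors deposited estimated counts, whole numbers here, by gene symbol, and the authors deposited TPM values per library. No source used here gives the annotation or strandedness. Groups and replicate numbers came from the sample titles.

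Genes were tested with edgeR 4.0.16 in R 4.3.3: filterByExpr (minimum count 10, which is 1.74 CPM at the median total, in 3 libraries), TMM scaling, a robust quasi-likelihood fit with treatment as its term, and Benjamini-Hochberg adjustment over 13597 genes. Standard errors were derived from the F statistic. CPM uses TMM-scaled totals. TPM was tested with limma 3.58.1 on log2(TPM + 1), a scale that understates changes of low genes. DESeq2 1.42.0 was an alternative. The scripts were tested on simulated data. Levels are relative to the other RNA of a library, as the labels name no spike-in. Intervals and floors cover counting error only. A gene with 0 counts would be limited, at 3 counts, to 1.53 CPM in the shallowest library.

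The members, lists and tests were chosen with earlier results of these data known. Named genes were the 7 members, DDIT4L, TBC1D7 and RHEB, for each list up to 3 called genes on its commoner side and 2 on the opposite side, ranked by adjusted p, and the 3 profiles nearest DDIT4 and SESN2; some genes that this rule selects are not reported here. Positions are from GENCODE v29 (GRCh38) and promoters from RefSeq (GRCh38.p14).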

Additional observations from a re-analysis of the deposited data

How the results depend on the processing

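DDIT4, SESN1, SESN2, DEPTOR, TSC1 and TSC2 kept their direction and call in all 18 alternative fits with a test, with adjusted p of at most 0.0254. With the replicate number as a block the log2 fold changes were -3.04, -1.16, -1.88, -1.22, -0.56 and -0.98, the block gave 4107 genes higher and 4190 lower, and it changed no call among the 7 genes. Deviations of same-numbered libraries from their group means correlated at 0.038, 0 and 0.035, and those of differently numbered libraries at -0.044 to 0.019. Counts of DMSO replicates 1 and 2 were sampled down to the total of replicate 3 for this. Counting noise at that depth could hide a shared day, so these values do not exclude pairing. The numbers were not taken as pairs because no source used here states a shared day. Over all genes, calls became 2474 higher and 7472 lower on log2(TPM + 1) with a filter, 2444 and 7299 on log2(TPM + 0.1), and 7365 lower without a TPM filter. SESN1 reached -1.92 on log2(TPM + 0.1). The log2 difference in summed sestrins was -1.84 in CPM. The SESN3 pooled ratio lay between -0.59 and 0.02 on the log2 scale.

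On log2(TPM + 1) with a filter, counts of list members called higher and lower were 0 and 6 for mTORC1 and mTORC2 subunits, 1 and 7 for the restraining arm, 5 and 8 for the activating arm, 0 and 14 for inputs to TSC, 0 and 14 for substrates, 0 and 11 for transcription factors and 2 and 11 for turnover factors. Without a low-count filter the counts higher were 2, 2, 4, 2, 0, 0 and 4 in the same order, with 5 mTORC1 and mTORC2 subunits lower. With limma-voom 1 substrate was higher, and without CCT068127 replicate 1, 1 transcription factor was. The cause of these shifts was not tested. Depth limits SESN3, SESN1 and DEPTOR most.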
